A study of Mus musculus with 12 samples.

Results

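The gene set described here is p53 and 29 genes known as its targets or close regulators, 30 of the 28427 rows in the deposited mouse tables. Members were chosen by name, with earlier results of these data known. Each was found by its symbol or a synonym of it in the annotation deposited with the counts. All 30 had a row, and all 30 passed the filter on low counts that left 13951 genes for testing. They are described in 5 classes: p53 with its regulators (4 genes), arrest (4), death (12), repair (4), and stress and metabolism (6). The series measured RNA in mammary epithelial cells of C57BL/6 mice with 3 libraries, described as biological replicates, in each of 4 groups. The groups were spheroids inside growth factor-reduced Matrigel for 96 h, monolayers on collagen for 96 h, spheroids for 48 h and monolayers for 48 h. No gene had been altered in any group, and medium with progesterone and prolactin, hormones of the mammary gland, was used in both formats. Medium in the gels was renewed after 48 h, and the labels state no such change for monolayers. The sources used here give neither the ages of the mice nor whether replicates came from different animals, so p-values measure the spread between these cultures. Culture format and matrix changed together, so the effect of one cannot be told apart from that of the other. Medium renewal, stated for the gels only, cannot be told apart from format at 96 h or from time in spheroids.

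p53 is a transcription factor that cells stabilise after DNA damage and other stresses. It switches on genes that halt the cell cycle, such as Cdkn1a, genes that promote cell death, such as Bax and Bbc3, and genes of DNA repair. It also switches on Mdm2, whose product marks p53 for destruction, which closes a negative feedback loop, so that p53 is controlled largely through the stability of its protein, which these libraries do not measure. In epithelia such as the mammary gland, several of the targets are also controlled by relatives of p53 or by stress pathways that do not need it.

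p53 binds paired copies of a consensus decamer, and the promoters of the members were searched for it on the RefSeq sequences of GRCm38.p6, with windows from 250 bases before to 50 bases after each start site. The table held 31 windows for 23 of the 30 members and none for Zmat3, Pmaip1, Trp53inp1, Perp, Tnfrsf10b, Ddb2 and Rrm2b. The decamer is its own reverse complement in its degenerate letters, so each search covers both strands, and matches were allowed to overlap. At least 1 exact decamer lay in 11 of the 31 windows (35.5%), which belong to 10 members, against 8.36% of all 32851 promoter windows. A pair at most 13 bases apart with at most 2 mismatches, none of them in the fixed C and G, lay in 4 of the 31 windows (12.9%), against 4.09% of all windows. These 4 windows are shown because they carry such pairs in genes whose levels are described below, and the Mdm2 window because that gene closes the feedback loop and its window held a single exact decamer. Capitals mark every decamer that belongs to such a pair or, in Mdm2, the exact decamer.
Cdkn1a: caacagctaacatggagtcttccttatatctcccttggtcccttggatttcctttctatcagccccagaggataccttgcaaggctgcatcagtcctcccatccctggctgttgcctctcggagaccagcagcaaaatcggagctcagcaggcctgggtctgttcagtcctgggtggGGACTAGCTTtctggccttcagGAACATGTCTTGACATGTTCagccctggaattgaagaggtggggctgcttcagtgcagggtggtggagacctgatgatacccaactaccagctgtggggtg
Ccng1: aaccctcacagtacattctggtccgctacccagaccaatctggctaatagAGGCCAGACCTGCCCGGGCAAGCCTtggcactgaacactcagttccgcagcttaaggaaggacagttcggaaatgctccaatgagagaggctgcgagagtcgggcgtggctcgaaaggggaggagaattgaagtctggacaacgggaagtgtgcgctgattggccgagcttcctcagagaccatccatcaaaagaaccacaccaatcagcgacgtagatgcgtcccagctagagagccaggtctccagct
Bax: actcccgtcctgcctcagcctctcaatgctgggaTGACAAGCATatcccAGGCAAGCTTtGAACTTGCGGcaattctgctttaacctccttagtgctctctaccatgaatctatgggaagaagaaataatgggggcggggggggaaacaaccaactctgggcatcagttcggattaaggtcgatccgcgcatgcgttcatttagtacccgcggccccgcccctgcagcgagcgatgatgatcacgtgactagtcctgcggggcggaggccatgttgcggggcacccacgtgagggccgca
Sesn1: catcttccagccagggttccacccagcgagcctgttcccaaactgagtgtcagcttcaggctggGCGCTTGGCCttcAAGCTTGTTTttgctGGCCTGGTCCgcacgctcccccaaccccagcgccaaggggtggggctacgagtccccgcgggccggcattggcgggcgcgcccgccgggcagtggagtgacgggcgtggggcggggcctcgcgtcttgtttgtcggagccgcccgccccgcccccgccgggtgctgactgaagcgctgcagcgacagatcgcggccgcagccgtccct
Mdm2: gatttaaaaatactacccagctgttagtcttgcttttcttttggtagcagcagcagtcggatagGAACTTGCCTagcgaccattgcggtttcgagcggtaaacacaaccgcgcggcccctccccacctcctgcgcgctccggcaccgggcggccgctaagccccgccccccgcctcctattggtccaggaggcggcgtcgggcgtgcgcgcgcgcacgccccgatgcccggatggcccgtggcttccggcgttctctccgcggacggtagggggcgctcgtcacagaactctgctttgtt
The windows are chr17:29090729-29091028 on the plus strand for 1 of the Cdkn1a starts, chr11:40755237-40755536 on the minus strand for Ccng1, chr7:45466849-45467148 on the minus strand for Bax, chr10:41887189-41887488 on the plus strand for 1 of the Sesn1 starts and chr10:117710709-117711008 on the minus strand for Mdm2. The Cdkn1a window shown held a pair with 0 mismatches between bases -73 and -42 from its start site. It also held a pair with 1 mismatch between bases -51 and -32 that uses the second decamer of the first pair. The window of the other Cdkn1a start held no exact decamer, and its best pair had 5 mismatches. Ccng1 had a pair with 1 mismatch and no bases between its decamers, and a pair with 2 mismatches that uses the same last decamer. Bax had pairs with 2 mismatches and 5 or 1 bases between decamers, and Sesn1 had such pairs with 3 or 5 bases between. In each of these windows the pairs share a decamer. The best pair in the Mdm2 window had 4 mismatches. Sites outside the windows were not searched. A match describes letters only, and binding was not measured.

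Most of these genes were lower in spheroids than in monolayers at 96 h. In the quasi-likelihood test of edgeR, adjusted over all tested genes by the Benjamini-Hochberg method with a threshold of 0.05, 22 of the 30 members fell and 5 rose. Among all tested genes 36.5% fell and 37.3% rose, 73.8% in either direction. Mdm2 was 4.44-fold lower, Trp53inp1 5.78-fold and Pmaip1 5.39-fold, and Trp53 itself was 1.25-fold higher. The members' median log2 change was -0.74, beside 0 for all tested genes, and 12 of them fell by over 2-fold while 1 rose by as much, against 17.1% and 12.7% of all genes. At 48 h the set was split: 11 members rose and 11 fell in spheroids, against 31.6% and 26.4% of all tested genes, with a median of 0.07 beside 0.05 and 57.9% of all genes called either way. By over 2-fold, 2 rose and 2 fell, against 9.53% and 8.38% of all genes. In monolayers 20 members rose and 2 fell at 96 h against 48 h (30.1% and 31.3% of all genes, 61.3% in either direction; median 0.51 beside 0.01). In spheroids 5 rose and 11 fell over the same time (19.3% and 20.5% of all genes, 39.8% in either direction; median -0.08 beside 0.01). RNA came from whole cultures, so fewer cells of a type and less RNA per cell cannot be told apart.

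The 96 h monolayers had the highest group mean for 20 of the 30 members, against 32.7% of all tested genes. The highest mean lay in 96 h spheroids for 3 members (27.5% of all genes), in 48 h spheroids for 4 (20.4%) and in 48 h monolayers for 3 (19.5%). The 96 h spheroids had the lowest mean for 15 members (24.9% of all genes), the 96 h monolayers for 2 (32.4%), the 48 h spheroids for 4 (19.8%) and the 48 h monolayers for 9 (22.8%).

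**Figure D1:**
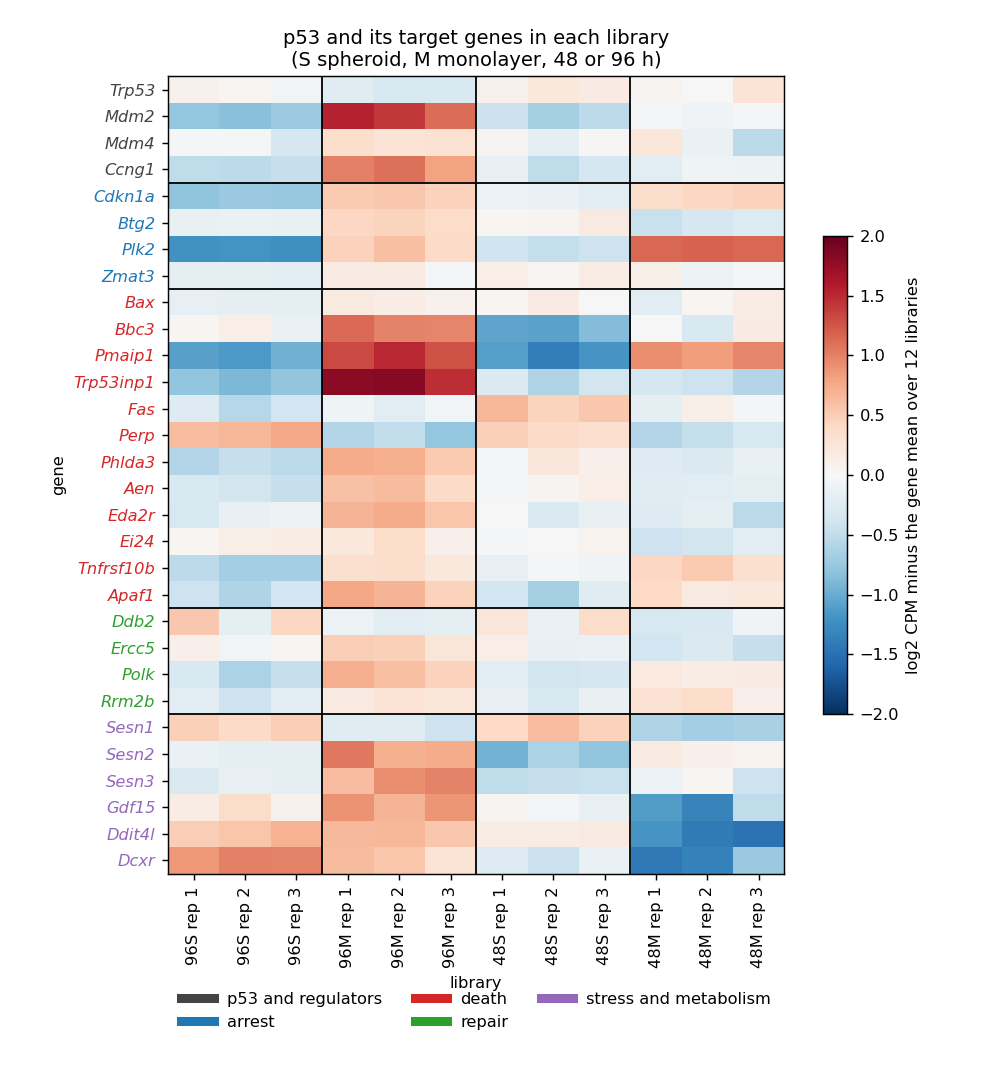
Level of each of the 30 genes (rows, coloured by class) in each of the 12 libraries (columns), as log2 CPM minus the gene's mean over all libraries. Most rows are reddest in the 3 columns of 96 h monolayers, which hold the highest group mean for 20 of the 30 genes, while Trp53 and Perp are lowest there.

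Library totals lay between 7674105 and 13554497 counts, and library scaling factors between 0.923 and 1.07. The split of calls over all genes depended on the scaling. At 48 h 54.5% of called genes were higher in spheroids, against 65.1% under scaling by total count alone and 65.5% on the log2 FPKM values. In monolayers 49% of called genes were higher at 96 h, against 66.2% and 64.1% under these alternatives. Total-count scaling moved the median of all genes by 0.11 on the log2 scale in the first of these comparisons and by 0.17 in the second. The members' counts under it were 14 higher and 10 lower in 48 h spheroids, and 23 higher and 2 lower in 96 h monolayers.

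Among p53 and its regulators, the gene of p53 moved against the genes of the proteins that restrain it in comparisons with 96 h monolayers. Trp53 stood at 156, 152 and 142 CPM in spheroids, against 125, 118 and 119 CPM in monolayers at 96 h. Trp53 levels at 48 h were 156, 170.4 and 166 CPM in spheroids, against 153, 149 and 178 CPM in monolayers. The 96 h monolayers were below every other library, and the other groups overlapped one another. Trp53 was higher in spheroids at 96 h (log2 change 0.32 ± 0.0725, adjusted p = 0.000718), without a call at 48 h (log2 change 0.03, adjusted p = 0.703). It fell in monolayers with time (log2 change -0.41 ± 0.0727, adjusted p = 0.000102), by less under total-count scaling (-0.24) and on the log2 FPKM values (-0.23), and had no call in spheroids (log2 change -0.13, adjusted p = 0.176), where it was called lower with only those 2 groups fitted (adjusted p = 0.0383).

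Mdm2, the ubiquitin ligase that degrades p53 and is itself a p53 target, showed the largest fall of this class. Mdm2 stood at 110.4, 105 and 114 CPM in spheroids, against 550.3, 502 and 409.7 CPM in monolayers at 96 h. Mdm2 levels at 48 h were 141, 119 and 132 CPM in spheroids, against 186, 181 and 184 CPM in monolayers. The 96 h monolayers lay far above all other libraries, and the 4 groups did not overlap. The difference between formats was 4.44-fold at 96 h (log2 change -2.15 ± 0.0916, adjusted p = 2.5e-13) and 1.41-fold at 48 h (log2 change -0.49 ± 0.0906, adjusted p = 0.00014), lower in spheroids each time. In monolayers Mdm2 was 2.65-fold higher at 96 h than at 48 h (log2 change 1.41 ± 0.0891, adjusted p = 2.45e-10). In spheroids it was lower at 96 h (log2 change -0.25, adjusted p = 0.0364), a call that ended without replicate 1 or 3 of the 48 h spheroids or any 1 of the 96 h spheroids (adjusted p from 0.0623 to 0.163) and on the log2 FPKM values (adjusted p = 0.0572). Per length, Mdm2 mRNA stood to Trp53 mRNA in a ratio of 0.404 ± 0.032 in 96 h spheroids and 2.22 ± 0.302 in 96 h monolayers, and of 0.436 ± 0.0548 in 48 h spheroids and 0.63 ± 0.0555 in 48 h monolayers (FPKM over FPKM, SD, n = 3).

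Ccng1, the gene of cyclin G1, a p53 target that acts on Mdm2 through a phosphatase, followed Mdm2 at 96 h. Ccng1 stood at 255, 251 and 264 CPM in spheroids, against 724, 772 and 629 CPM in monolayers at 96 h. Ccng1 levels at 48 h were 326, 255 and 284 CPM in spheroids, against 310.3, 342 and 337 CPM in monolayers. Only the 96 h monolayers stood apart from all other groups. Ccng1 was 2.76-fold lower in spheroids at 96 h (log2 change -1.46 ± 0.088, adjusted p = 3.62e-11) and 2.15-fold higher in monolayers at 96 h than at 48 h (log2 change 1.1 ± 0.0872, adjusted p = 5.16e-09). At 48 h it had no call between formats (log2 change -0.19, adjusted p = 0.0668), though it was called lower without replicate 1 of the 48 h monolayers (adjusted p = 0.0335), replicate 1 of the 48 h spheroids (0.0105) or replicate 3 of the 96 h monolayers (0.0413), and in all under 8 of 22 alternatives, among them scaling by DESeq2 size factors (0.0298) and DESeq2 itself (0.0201). In spheroids it had no call with time (log2 change -0.17, adjusted p = 0.139), and was called lower when replicate 2 of the 48 h spheroids was left out (adjusted p = 0.0467) or only those 2 groups were fitted (0.0319). Mdm4, a relative of Mdm2 that binds and restrains p53, was lower in spheroids at 96 h (log2 change -0.44 ± 0.132, adjusted p = 0.00557) and higher in monolayers at 96 h than at 48 h (log2 change 0.42 ± 0.133, adjusted p = 0.0113). The second of these calls ended without replicate 3 of the 48 h monolayers (log2 change 0.25, adjusted p = 0.0515).

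**Figure D2:**
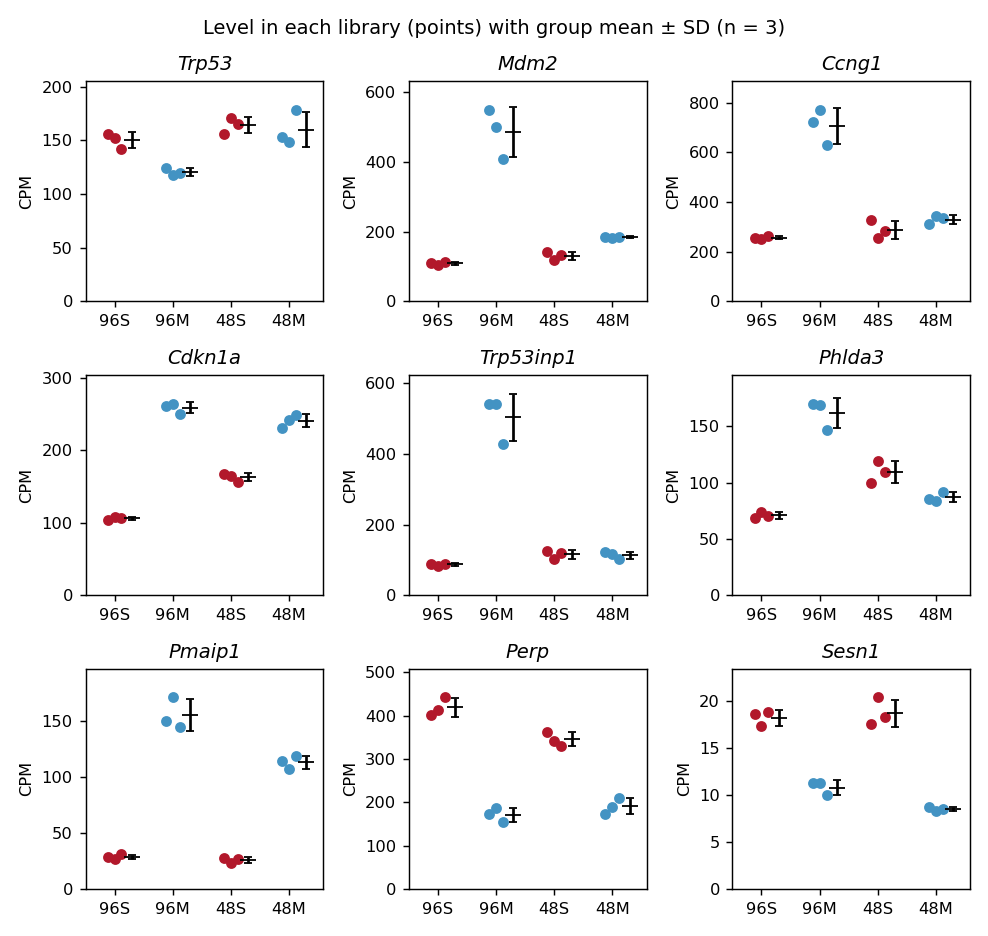
Level in CPM of 9 of the genes in each library (points; red spheroids, blue monolayers), with the group mean ± SD beside them (black, n = 3), from 96 h spheroids on the left to 48 h monolayers on the right. Mdm2, Ccng1, Trp53inp1 and Phlda3 are high in 96 h monolayers, Cdkn1a and Pmaip1 in monolayers of both times, and Perp and Sesn1 in spheroids of both times.

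All 4 arrest genes were lower in spheroids at 96 h, where 36.5% of all tested genes were. Cdkn1a encodes p21, the inhibitor of cyclin-dependent kinases through which p53 halts the cycle. Cdkn1a stood at 104, 108 and 106 CPM in spheroids, against 262, 264 and 250.1 CPM in monolayers at 96 h. Cdkn1a levels at 48 h were 167, 165 and 156 CPM in spheroids, against 231, 242 and 249 CPM in monolayers. Spheroids were below monolayers at each time without overlap, and the 96 h spheroids were lowest of all. Cdkn1a was 2.44-fold lower in spheroids at 96 h (log2 change -1.29 ± 0.0599, adjusted p = 9.04e-13) and 1.48-fold lower at 48 h (log2 change -0.57 ± 0.0591, adjusted p = 1.57e-07). Within spheroids it fell with time (log2 change -0.62 ± 0.0602, adjusted p = 1.56e-07), while in monolayers there was no call (log2 change 0.1, adjusted p = 0.135). Under upper-quartile scaling, total-count scaling, the stricter count filter and the log2 FPKM values, Cdkn1a was called higher in 96 h monolayers (adjusted p from 0.000261 to 0.0347).

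Plk2, a polo-like kinase induced by stress, had the largest difference between formats in this class. Plk2 stood at 77.1, 77.7 and 76 CPM in spheroids, against 244, 269.8 and 232 CPM in monolayers at 96 h. Plk2 levels at 48 h were 135, 127 and 133 CPM in spheroids, against 394, 401 and 395 CPM in monolayers. No groups overlapped, and unlike most members its highest group was the 48 h monolayers. It was 3.23-fold lower in spheroids at 96 h (log2 change -1.69 ± 0.0659, adjusted p = 6.82e-14) and 3.01-fold lower at 48 h (log2 change -1.59 ± 0.0647, adjusted p = 2.5e-13). Plk2 was the 1 member that fell with time in both formats, by 0.68 on the log2 scale in monolayers (adjusted p = 4.15e-08) and by 0.78 in spheroids (adjusted p = 2.66e-08). Over all genes 6.81% fell in both. Btg2, an antiproliferative cofactor, averaged 77.7 ± 0.739 CPM in spheroids and 114 ± 2.91 CPM in monolayers at 96 h, and 91.8 ± 4.87 CPM in spheroids and 67.6 ± 3.77 CPM in monolayers at 48 h (SD, n = 3). It was thus lower in spheroids at 96 h (log2 change -0.55, adjusted p = 2.39e-07) and higher at 48 h (log2 change 0.44, adjusted p = 1e-05). Zmat3, an RNA-binding zinc finger protein, was lower in 96 h spheroids than in 96 h monolayers (log2 change -0.3, adjusted p = 0.000826) and than in 48 h spheroids (log2 change -0.31, adjusted p = 0.00198). It had no call in monolayers with time (log2 change 0.11, adjusted p = 0.2), and was called higher there without replicate 3 of the 96 h monolayers (adjusted p = 0.0479), under total-count scaling and on the log2 FPKM values.

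Of the 12 death genes, 9 fell and 1 rose in spheroids at 96 h, with a median log2 change of -0.91, against 36.5% and 37.3% of all tested genes. At 48 h 5 rose and 4 fell, with a median of 0.12, near the 31.6% and 26.4% of all genes. In monolayers 8 rose and none fell with time (median 0.51; 30.1% and 31.3% of all genes), while in spheroids 2 rose and 6 fell (median -0.15; 19.3% and 20.5%). Trp53inp1, a nuclear protein that promotes p53 activity and cell death, had the largest difference of all members between formats at 96 h and between times in monolayers. Trp53inp1 stood at 89, 83 and 89.3 CPM in spheroids, against 542, 543 and 428 CPM in monolayers at 96 h. Trp53inp1 levels at 48 h were 126, 102 and 119 CPM in spheroids, against 121, 116 and 103 CPM in monolayers. The 3 libraries of 96 h monolayers stood apart from the other 9, and the 48 h groups overlapped. It was 5.78-fold lower in spheroids at 96 h (log2 change -2.53 ± 0.0991, adjusted p = 7.25e-14), had no call at 48 h (log2 change 0.04, adjusted p = 0.772), was 4.45-fold higher in 96 h than in 48 h monolayers (log2 change 2.15 ± 0.0977, adjusted p = 2.69e-12) and fell in spheroids (log2 change -0.41 ± 0.0986, adjusted p = 0.00267).

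Pmaip1 and Bbc3 encode NOXA and PUMA, proteins that free the mitochondrial death machinery. Pmaip1 stood at 28.2, 27.2 and 31 CPM in spheroids, against 150.1, 172 and 145 CPM in monolayers at 96 h. Pmaip1 levels at 48 h were 28.1, 23 and 26.6 CPM in spheroids, against 114, 107 and 119 CPM in monolayers. Spheroids of both times lay together, far below the monolayers. The gene was 5.39-fold lower in spheroids at 96 h (log2 change -2.43 ± 0.084, adjusted p = 1.24e-14) and 4.36-fold lower at 48 h (log2 change -2.12 ± 0.0881, adjusted p = 3.25e-13), and it rose in monolayers with time (log2 change 0.45, adjusted p = 5.21e-05). Bbc3 stood at 10, 10.7 and 8.91 CPM in spheroids, against 21.5, 19.5 and 19.3 CPM in monolayers at 96 h. Bbc3 levels at 48 h were 4.73, 4.63 and 5.34 CPM in spheroids, against 9.8, 7.88 and 10.9 CPM in monolayers. The 96 h spheroids overlapped the 48 h monolayers, with 96 h monolayers above and 48 h spheroids below. Bbc3 was lower in spheroids by 2.04-fold at 96 h (log2 change -1.03 ± 0.119, adjusted p = 3.25e-07) and 1.94-fold at 48 h (log2 change -0.95 ± 0.152, adjusted p = 2.82e-05). It rose with time in each format, with log2 changes of 1.08 in monolayers (adjusted p = 5.15e-07) and 1.01 in spheroids (adjusted p = 2.56e-05).

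Perp ran the other way. It encodes a membrane protein of desmosomes, the junctions that hold epithelial cells together, and is a target of p63 as well as of p53. Perp stood at 402, 413 and 442 CPM in spheroids, against 174, 186 and 153 CPM in monolayers at 96 h. Perp levels at 48 h were 363, 342 and 331 CPM in spheroids, against 174, 189 and 210.1 CPM in monolayers. Every spheroid library was above every monolayer library. It was 2.45-fold higher in spheroids at 96 h (log2 change 1.29 ± 0.0818, adjusted p = 7.62e-11) and 1.81-fold higher at 48 h (log2 change 0.85 ± 0.0813, adjusted p = 4.3e-08). In spheroids it rose with time (log2 change 0.28, adjusted p = 0.00943), a call that ended when replicate 3 of the 96 h spheroids was left out (adjusted p = 0.0501). In monolayers it had no call with time (log2 change -0.16, adjusted p = 0.0992), and was called lower without replicate 1 of the 48 h monolayers (adjusted p = 0.0222) or replicate 2 of the 96 h monolayers (0.0421). Trp63, the gene of p63, averaged 32 ± 2.29 CPM in spheroids and 4.95 ± 0.508 CPM in monolayers at 96 h, and 34.5 ± 2.42 CPM in spheroids and 9.53 ± 1.11 CPM in monolayers at 48 h (SD, n = 3). It was 6.36-fold and 3.62-fold higher in spheroids at the 2 times (adjusted p = 3.97e-13 at 96 h and 3.04e-11 at 48 h).

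Phlda3, a blocker of the survival kinase Akt, changed direction between the times. Phlda3 stood at 68.2, 73.9 and 70.6 CPM in spheroids, against 170.4, 169 and 147 CPM in monolayers at 96 h. Phlda3 levels at 48 h were 99.8, 119.5 and 109 CPM in spheroids, against 85.8, 83.9 and 92 CPM in monolayers. Spheroids were below monolayers at 96 h and above them at 48 h, without overlap at either time. Phlda3 was 2.29-fold lower in spheroids at 96 h (log2 change -1.19 ± 0.0762, adjusted p = 8.76e-11) and 1.25-fold higher at 48 h (log2 change 0.33 ± 0.077, adjusted p = 0.00131). Aen, a nuclease of dying cells, did the same (log2 change -0.91, adjusted p = 2.77e-09 at 96 h and log2 change 0.27, adjusted p = 0.00588 at 48 h). Both rose in monolayers and fell in spheroids with time.

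Apaf1 is the scaffold on which caspases are activated after mitochondria release cytochrome c. Apaf1 stood at 32.5, 28.4 and 33.1 CPM in spheroids, against 73.4, 69 and 59.5 CPM in monolayers at 96 h. Apaf1 levels at 48 h were 33, 27.1 and 36.6 CPM in spheroids, against 56.8, 48.7 and 50.2 CPM in monolayers. Spheroids of the 2 times overlapped each other and lay below all monolayers. It was 2.15-fold lower in spheroids at 96 h (log2 change -1.1 ± 0.102, adjusted p = 1.61e-08) and 1.6-fold lower at 48 h (log2 change -0.68 ± 0.106, adjusted p = 2.28e-05). Tnfrsf10b, the TRAIL death receptor, was also lower at both times (log2 change -0.92, adjusted p = 1.82e-09 at 96 h and log2 change -0.51, adjusted p = 6.83e-06 at 48 h). In monolayers it had no call with time (log2 change -0.13, adjusted p = 0.124), and was called lower without replicate 3 of the 48 h monolayers (adjusted p = 0.0379). Eda2r, a receptor of the same family, was lower in spheroids at 96 h (log2 change -0.85, adjusted p = 2.87e-07) and higher in monolayers at 96 h than at 48 h (log2 change 0.98, adjusted p = 1.41e-07).

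Bax, which forms pores in mitochondria, moved little. It averaged 68.7 ± 0.955 CPM in spheroids and 85.6 ± 2.6 CPM in monolayers at 96 h, and 81.6 ± 5 CPM in spheroids and 77.8 ± 9.82 CPM in monolayers at 48 h (SD, n = 3). Bax was lower in 96 h spheroids than in 96 h monolayers (log2 change -0.32, adjusted p = 0.00137). It was also lower there than in 48 h spheroids (log2 change -0.25, adjusted p = 0.0185), a call that ended on leaving out replicate 2 of the 48 h spheroids (adjusted p = 0.1) or replicate 2 or 3 of the 96 h spheroids (adjusted p = 0.0595 and 0.0592). In monolayers it had no call with time (log2 change 0.14, adjusted p = 0.139), and was called higher without replicate 3 of the 48 h monolayers (adjusted p = 0.02) and under 3 other alternatives. Fas, the death receptor of the Fas ligand, was low throughout, between 2.78 and 5.37 CPM as group means. It was higher in spheroids at 48 h (log2 change 0.57, adjusted p = 0.00923), a call that ended with DESeq2 (adjusted p = 0.0502), and fell in spheroids with time (log2 change -0.95, adjusted p = 0.000348). Ei24, a protein of the endoplasmic reticulum, rose in 48 h spheroids (log2 change 0.34, adjusted p = 0.000723) and in monolayers with time (log2 change 0.56, adjusted p = 3.5e-06). Between formats at 96 h it had no call (log2 change -0.13, adjusted p = 0.113), and was called lower in spheroids without replicate 3 of the 96 h monolayers (adjusted p = 0.0329) and under 4 other alternatives.

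Among the 4 repair genes, 3 fell and 1 rose in spheroids at 96 h (median log2 change -0.44; 36.5% and 37.3% of all genes), and none had a call between times within spheroids. Polk, a DNA polymerase that copies past damaged bases, changed the most. Polk stood at 26.5, 21.1 and 23.8 CPM in spheroids, against 53.8, 49.5 and 44.7 CPM in monolayers at 96 h. Polk levels at 48 h were 28.1, 25.4 and 25.8 CPM in spheroids, against 37.3, 36.2 and 36.5 CPM in monolayers. Spheroids lay below monolayers at each time, and the 96 h monolayers were highest. It was 2.07-fold lower in spheroids at 96 h (log2 change -1.05 ± 0.0887, adjusted p = 4.6e-09) and 1.38-fold lower at 48 h (log2 change -0.47 ± 0.0926, adjusted p = 0.000281), where the log2 FPKM values gave a smaller change of -0.28. Rrm2b, a ribonucleotide reductase subunit that supplies nucleotides for repair, was lower in spheroids at 96 h (log2 change -0.51, adjusted p = 9.44e-05) and at 48 h (log2 change -0.47, adjusted p = 0.000414, and -0.3 on the log2 FPKM values). Ercc5, the XPG endonuclease of nucleotide excision repair, was lower in spheroids at 96 h (log2 change -0.37, adjusted p = 0.00118) and higher at 48 h (log2 change 0.34, adjusted p = 0.0062). The 48 h call ended when replicate 1 of the 48 h spheroids was left out (adjusted p = 0.0562). Ddb2, which recognises ultraviolet damage, was the repair gene that rose, with 13.5, 8.06 and 12.4 CPM in 96 h spheroids, against 8.56, 7.89 and 8.11 CPM in 96 h monolayers. These groups overlapped (log2 change 0.47, adjusted p = 0.0192), and the call ended without replicate 2 of the 96 h monolayers (adjusted p = 0.0524), replicate 1 (0.113) or 3 (0.0698) of the 96 h spheroids and under upper-quartile scaling (0.0558). At 48 h Ddb2 had no call (log2 change 0.4, adjusted p = 0.0647), and was called higher in spheroids without replicate 3 of the 48 h monolayers, replicate 2 of the 48 h spheroids or replicate 2 of the 96 h spheroids (adjusted p = 0.0429, 0.0282 and 0.0242), and in all under 7 of 22 alternatives.

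All 6 stress and metabolism genes rose in monolayers with time, with a median log2 change of 1.32, where 30.1% of all tested genes rose. Between formats 2 rose and 3 fell in spheroids at 96 h (median -0.33), near the 37.3% and 36.5% of all genes, and 4 rose and 2 fell at 48 h (median 0.89; 31.6% and 26.4% of all genes). The sestrins, which restrain the growth kinase complex mTORC1 under stress, split. Sesn1 stood at 18.6, 17.3 and 18.8 CPM in spheroids, against 11.3, 11.3 and 9.97 CPM in monolayers at 96 h. Sesn1 levels at 48 h were 17.6, 20.4 and 18.3 CPM in spheroids, against 8.73, 8.29 and 8.5 CPM in monolayers. All spheroids lay above all monolayers. Sesn1 was 1.68-fold higher in spheroids at 96 h (log2 change 0.75 ± 0.0998, adjusted p = 1.97e-06) and 2.2-fold higher at 48 h (log2 change 1.14 ± 0.105, adjusted p = 2.96e-08). It rose in monolayers with time (log2 change 0.35, adjusted p = 0.0119), a call that ended without replicate 1 of the 96 h monolayers (adjusted p = 0.0509) and with DESeq2 (0.054).

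Sesn2, a sestrin that is also induced by the integrated stress response, stood at 26.4, 25.6 and 25.5 CPM in spheroids, against 60.3, 47.5 and 48.3 CPM in monolayers at 96 h. Sesn2 levels at 48 h were 15, 18.6 and 16.8 CPM in spheroids, against 32.6, 30.9 and 30.2 CPM in monolayers. Spheroids lay below monolayers at each time, and 96 h groups above the 48 h group of the same format. It was 2.02-fold lower in spheroids at 96 h (log2 change -1.02 ± 0.0934, adjusted p = 1.46e-08) and 1.86-fold lower at 48 h (log2 change -0.9 ± 0.106, adjusted p = 8.16e-07). Sesn3, a sestrin under the control of FoxO factors as well, stood at 23.6, 25.8 and 25.2 CPM in spheroids, against 44.3, 54.9 and 57.1 CPM in monolayers at 96 h. Sesn3 levels at 48 h were 20.1, 20.8 and 21.1 CPM in spheroids, against 26.5, 29.5 and 21.5 CPM in monolayers. The 96 h monolayers stood above all others. Sesn3 was 2.09-fold lower in spheroids at 96 h (log2 change -1.06 ± 0.106, adjusted p = 4.84e-08). At 48 h it was lower too (log2 change -0.32, adjusted p = 0.0265), a call that ended without replicate 1 (adjusted p = 0.054) or 2 (0.166) of the 48 h monolayers or replicate 1 (0.0807) or 2 (0.0548) of the 48 h spheroids, under total-count scaling (0.126) and on the log2 FPKM values (0.152). In spheroids it had no call with time (log2 change 0.27, adjusted p = 0.0809), and was called higher without replicate 3 of the 48 h monolayers (adjusted p = 0.0374) or replicate 1 of the 96 h monolayers (0.0495), with both rows of the gene summed (0.00446) and under 2 other alternatives.

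Gdf15, a secreted stress signal that p53 and the integrated stress response both induce, stood at 10.4, 12.1 and 10 CPM in spheroids, against 17.5, 15 and 17.2 CPM in monolayers at 96 h. Gdf15 levels at 48 h were 9.75, 9.27 and 8.46 CPM in spheroids, against 4.31, 3.73 and 6.62 CPM in monolayers. Spheroids were below monolayers at 96 h and above them at 48 h. It was 1.54-fold lower in spheroids at 96 h (log2 change -0.62 ± 0.141, adjusted p = 0.000655) and 1.88-fold higher at 48 h (log2 change 0.91 ± 0.177, adjusted p = 0.000241), and was 3.41-fold higher in monolayers at 96 h than at 48 h (log2 change 1.77 ± 0.162, adjusted p = 3.54e-08). Ddit4l, an inhibitor of mTORC1, stood at 17.4, 18.1 and 20 CPM in spheroids, against 19.4, 19.7 and 18 CPM in monolayers at 96 h. Ddit4l levels at 48 h were 13.7, 13.7 and 14.1 CPM in spheroids, against 5.49, 4.64 and 4.47 CPM in monolayers. The 96 h groups overlapped, and the 48 h monolayers were lowest. It had no call between formats at 96 h (log2 change -0.04, adjusted p = 0.738) and was 2.85-fold higher in spheroids at 48 h (log2 change 1.51 ± 0.122, adjusted p = 4.29e-09). In monolayers it was 3.91-fold higher at 96 h than at 48 h (log2 change 1.97 ± 0.116, adjusted p = 9.08e-11).

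Dcxr, an enzyme that reduces sugars and dicarbonyls, stood at 46.3, 51.1 and 50.8 CPM in spheroids, against 39.7, 37.6 and 30.8 CPM in monolayers at 96 h. Dcxr levels at 48 h were 21.4, 18.9 and 23.2 CPM in spheroids, against 9.51, 10 and 15.3 CPM in monolayers. Spheroids lay above monolayers and 96 h groups above 48 h groups, with no overlap. It was 1.37-fold higher in spheroids at 96 h (log2 change 0.46 ± 0.12, adjusted p = 0.00224) and 1.82-fold higher at 48 h (log2 change 0.86 ± 0.152, adjusted p = 8.58e-05), and it rose with time by 3.09-fold in monolayers (log2 change 1.63 ± 0.142, adjusted p = 1.84e-08) and 2.33-fold in spheroids (log2 change 1.22 ± 0.129, adjusted p = 4.28e-07).

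Set side by side at 96 h, the median log2 change in spheroids was -0.95 for p53 and its regulators (1 rose, 3 fell), -0.92 for arrest genes (4 fell), -0.91 for death genes, -0.44 for repair genes and -0.33 for stress genes. Of all tested genes 37.3% rose and 36.5% fell there, with a median of 0. At 48 h the class medians in the same order were -0.08 (1 fell), -0.23 (1 rose, 2 fell), 0.12, -0.06 (1 rose, 2 fell) and 0.89. Over all genes 31.6% rose and 26.4% fell at 48 h, with a median of 0.05. With time in monolayers, 3 regulators rose and 1 fell, 1 arrest gene rose and 1 fell, and 2 repair genes rose. Among all genes 30.1% rose and 31.3% fell in that comparison. With time in spheroids, 1 regulator and all 4 arrest genes fell, where 20.5% of all genes fell and 19.3% rose. Differences between classes were not tested.

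**Figure D3:**
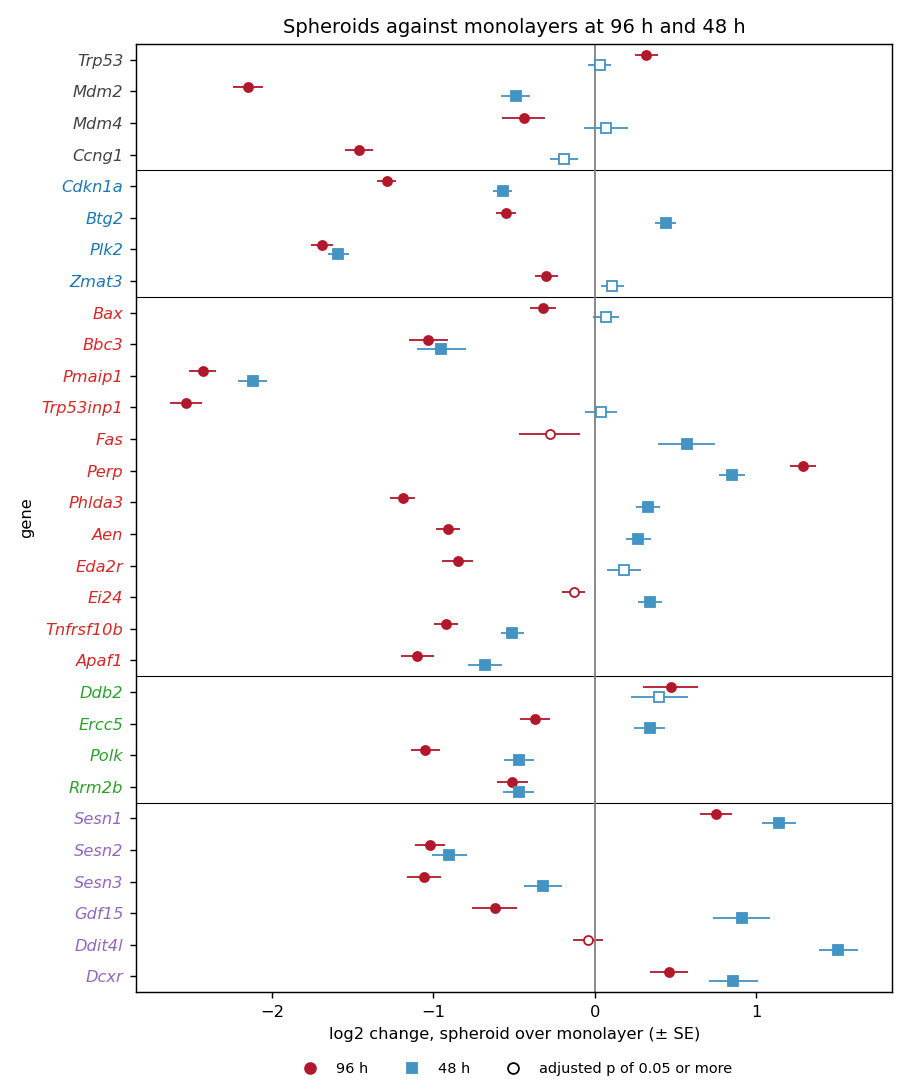
Log2 change of each of the 30 genes in spheroids over monolayers (± SE) at 96 h (red circles) and 48 h (blue squares), with open symbols where the adjusted p was 0.05 or more. At 96 h 22 genes lie to the left of 0 with a call, led by Trp53inp1, Pmaip1 and Mdm2, and 5 lie to the right, led by Perp.

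The format comparisons at the 2 times share no libraries. Lower in spheroids at both were 11 members, namely Mdm2, Cdkn1a, Plk2, Bbc3, Pmaip1, Tnfrsf10b, Apaf1, Polk, Rrm2b, Sesn2 and Sesn3, against 17.6% of all tested genes. Higher at both were 3, namely Perp, Sesn1 and Dcxr, against 21.4%. The opposite order, lower at 96 h and higher at 48 h, was seen in 5 members, Btg2, Phlda3, Aen, Ercc5 and Gdf15, against 4.18% of all genes, and none ran the other way (3.41%).

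The change in the format effect was tested directly, by subtracting the log2 change in spheroids over monolayers at 48 h from that at 96 h. This difference was called negative for 22 members and positive for 2, against 26.4% and 26.9% of all genes and 53.3% in either direction, with a median of -0.49 beside -0.02. It passed 2-fold in 8 of the negative and 0 of the positive ones, against 13.3% and 7.72% of all genes. Trp53inp1 had the most negative value (log2 change -2.57 ± 0.138, adjusted p = 3.53e-11), and Mdm2 (log2 change -1.66, adjusted p = 4.73e-09), Ddit4l (log2 change -1.55, adjusted p = 1.56e-07), Gdf15 (log2 change -1.53, adjusted p = 1.81e-05), Phlda3 (log2 change -1.52, adjusted p = 1.65e-09) and Ccng1 (log2 change -1.27, adjusted p = 1.04e-07) came after it. Plk2 (log2 change -0.1, adjusted p = 0.366), Bbc3 (log2 change -0.08, adjusted p = 0.764), Sesn2 (log2 change -0.12, adjusted p = 0.489), Rrm2b (log2 change -0.04, adjusted p = 0.827) and Ddb2 (log2 change 0.07, adjusted p = 0.828) had no call, though Plk2 was called negative under total-count scaling (adjusted p = 0.0111) and on the log2 FPKM values (0.0108). Dcxr had no call either (log2 change -0.41, adjusted p = 0.0857), and was called negative when replicate 3 of either monolayer group was left out (adjusted p = 0.00202 for 48 h and 0.0344 for 96 h), and in all under 6 of 21 alternatives. The positive ones were Perp and Trp53. Neither kept a call under total-count scaling (adjusted p = 0.0593 for Perp and 0.453 for Trp53) or on the log2 FPKM values (0.0675 and 0.513). The count of positive members was 1, Perp, without replicate 3 of the 48 h monolayers, replicate 1 of the 48 h spheroids, replicate 2 of the 96 h monolayers or replicate 1 or 2 of the 96 h spheroids, where the adjusted p of Trp53 lay between 0.0516 and 0.0628.

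**Figure D4:**
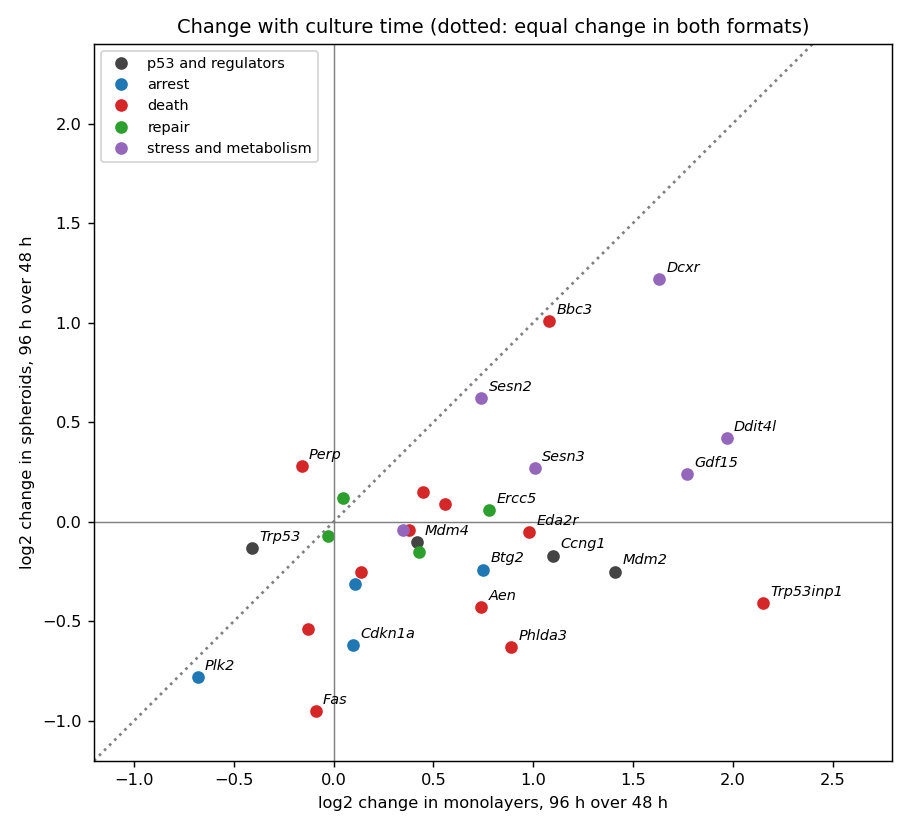
Log2 change with time in spheroids (vertical axis, 96 h over 48 h) against that in monolayers (horizontal axis) for each of the 30 genes, coloured by class. Most genes lie right of 0 and below the dotted line of equal change, with Trp53inp1 farthest right at 2.15 in monolayers against -0.41 in spheroids.

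With time, 4 members rose in both formats (Bbc3, Sesn2, Ddit4l and Dcxr; 6.07% of all genes did) and 5 rose in monolayers and fell in spheroids (Mdm2, Btg2, Trp53inp1, Phlda3 and Aen; 6.69% did). None fell in monolayers and rose in spheroids, where 6.97% of all genes did. In monolayers 8 members rose by over 2-fold and none fell as far, against 8.55% and 7.33% of all genes. In spheroids 2 rose by over 2-fold, Dcxr and Bbc3, and none fell as far (2.4% and 8.58%).

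Per length of gene, the members differed widely in level. Perp was the most abundant in 96 h spheroids at 220.3 ± 9.86 FPKM (mean ± SD, n = 3), above Trp53 at 89.2 ± 4.73 FPKM and Bax at 78.3 ± 2.2 FPKM. In 96 h monolayers Ccng1 led at 212 ± 21.7 FPKM, followed by Mdm2 at 168 ± 26.9 FPKM and Cdkn1a at 143 ± 4.81 FPKM. Fas was lowest there at 2.6 ± 0.365 FPKM.

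Genes that p53 is known to lower indirectly, through p21 and the DREAM repressor complex, moved together. These are cell cycle genes, and all 24 on the list rose in spheroids at 96 h (median log2 change 3.92, where 37.3% of all genes rose) and all 24 fell in monolayers with time (median -3, where 31.3% of all genes fell). Ccnb1, a mitotic cyclin, averaged 145 ± 2.89 CPM in spheroids and 3.29 ± 0.834 CPM in monolayers at 96 h, and 122 ± 6.35 CPM in spheroids and 68.6 ± 3.08 CPM in monolayers at 48 h (SD, n = 3). At 48 h 23 of the 24 rose in spheroids with a smaller median of 0.69 (31.6% of all genes rose), led by Mybl2, a transcription factor of cycling cells (log2 change 1.56, adjusted p = 8.8e-11), and Cdc25b, a phosphatase of mitotic entry (log2 change 1.4, adjusted p = 4.66e-11). In spheroids 15 rose with time and none fell (19.3% and 20.5% of all genes), with Cdc25c, a related phosphatase, at 0.84 (adjusted p = 3.28e-05). On the log2 FPKM values the rise of Cdc25c at 96 h was smaller (5.23 here and 3.24 there). Summed over the list, the level was 2423 ± 38.2 CPM in spheroids and 228 ± 25.6 CPM in monolayers at 96 h, and 2049 ± 28 CPM in spheroids and 1247 ± 35 CPM in monolayers at 48 h. The part of the share of dividing cells in the members' values was not tested. Whether p53, p21 or DREAM had a part in the changes of this list was not tested either.

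Of 24 regulators upstream of p53, 12 were higher and 6 lower in spheroids at 96 h (median 0.2; 37.3% and 36.5% of all genes), and 11 were higher and 5 lower at 48 h (median 0.22; 31.6% and 26.4%). The checkpoint kinase genes Chek1 (4.35-fold) and Chek2 (2.75-fold) were higher in spheroids at 96 h (adjusted p = 6.26e-12 and 1.93e-10). Atm, the kinase that signals broken DNA, was higher in spheroids at both times (log2 change 0.65, adjusted p = 1.71e-05 at 96 h and log2 change 0.96, adjusted p = 3.42e-07 at 48 h). Hipk2, a kinase that phosphorylates p53, was lower at 96 h (log2 change -1.58, adjusted p = 1.49e-05). At 48 h it was lower too (log2 change -0.72, adjusted p = 0.0168), a call that ended without replicate 1 or 2 of the 48 h monolayers (adjusted p = 0.147 and 0.0578) or replicate 2 of the 48 h spheroids (0.0629) and on the log2 FPKM values (0.135). Ppm1d, a phosphatase and p53 target that damps the response, rose 2.2-fold in monolayers with time (adjusted p = 1.42e-07) and was higher in spheroids at 48 h (log2 change 0.74, adjusted p = 4.1e-05). Usp7, which stabilises Mdm2 and p53, was higher in spheroids at 96 h (log2 change 0.29, adjusted p = 0.000422, and 0.18 on the log2 FPKM values). Cdkn2a, the gene of p16 and Arf, was low, with 51 counts in spheroids against 114 in monolayers at 96 h and 37 against 152 at 48 h (log2 change -1.45, adjusted p = 0.000662 at 96 h and log2 change -1.79, adjusted p = 0.000181 at 48 h). Trp73, a relative of p53, had 60 counts in spheroids against 4 in monolayers at 96 h, a ratio of 12.3 after scaling, and 18 against 0 at 48 h, at least 7.12-fold higher when 3 counts over the group are taken as the floor.

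Of 30 further p53 targets, 15 were higher and 10 lower in spheroids at 96 h (median 0.32), the second count near the 36.5% of all genes that were lower, where 37.3% were higher. At 48 h 18 were higher and 6 lower (median 0.44; 31.6% and 26.4% of all genes). The difference between this list and the members was not tested. Gadd45a, a stress gene of growth arrest, fell the most at 96 h, with 18.4 ± 0.928 CPM in spheroids and 181 ± 6.08 CPM in monolayers (log2 change -3.3, adjusted p = 5.55e-16), and was lower at 48 h too (-1.18, adjusted p = 1.58e-09). Cpt1c, a relative of carnitine palmitoyltransferases, fell as well (log2 change -1.82, adjusted p = 4.83e-11). Pcna, the sliding clamp of DNA replication, was 3.63-fold higher in 96 h spheroids (adjusted p = 5.58e-13), and Ckap2, a spindle protein, 3.37-fold higher (adjusted p = 2.35e-13). Sfn, the 14-3-3 sigma gene, fell with time in both formats (-2.05 in monolayers and -1.06 in spheroids on the log2 scale, adjusted p = 2.69e-12 and 2.79e-08). Ephx1, an epoxide hydrolase, rose 3.33-fold in monolayers with time (adjusted p = 1.62e-13).

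Of 14 genes of the integrated stress response, which include the members Sesn2, Gdf15 and Tnfrsf10b, 11 fell and 3 rose in spheroids at each time (median -0.8 at 96 h and -0.9 at 48 h). Of all genes, 36.5% fell and 37.3% rose at 96 h, and 26.4% fell and 31.6% rose at 48 h. Ddit3, the transcription factor CHOP, averaged 11.6 ± 1.03 CPM in spheroids and 84 ± 10.8 CPM in monolayers at 96 h (log2 change -2.87, adjusted p = 1.74e-13). Chac1, which breaks down glutathione, was lower at 48 h (log2 change -3, adjusted p = 1.51e-13) and at 96 h (log2 change -1.07, adjusted p = 4.08e-09). Slc7a11, a cystine transporter that p53 can repress, was lower in spheroids at 96 h (log2 change -2.52, adjusted p = 1.9e-13) and higher at 48 h (log2 change 2.25, adjusted p = 1.94e-12). In monolayers 7 of the 14 rose and 2 fell with time (30.1% and 31.3% of all genes).

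**Figure D5:**
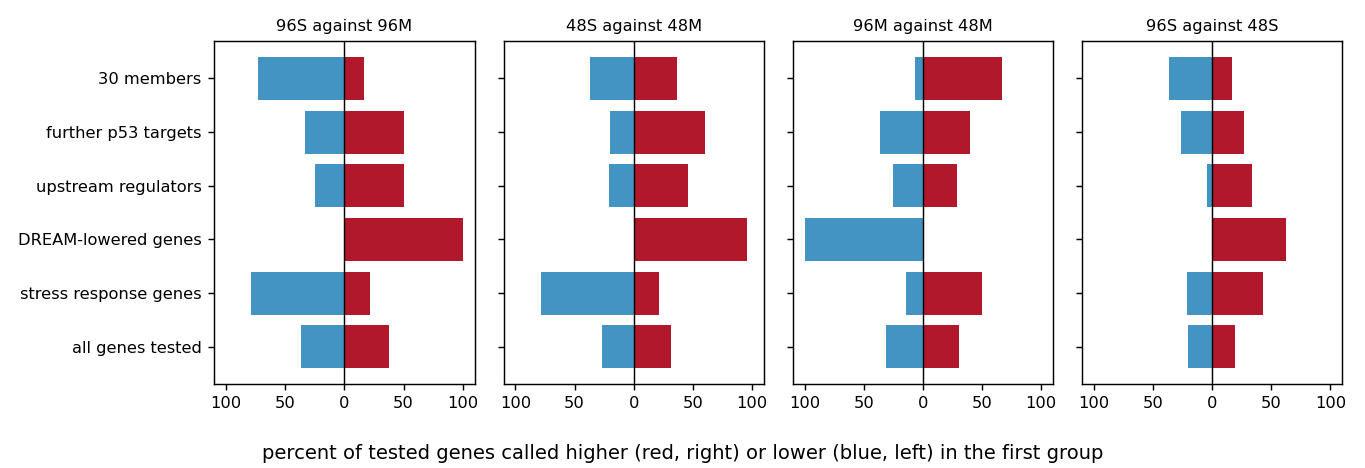
Percent of the tested genes of each list called higher (red, to the right) or lower (blue, to the left) in the first-named group of each comparison, with all tested genes for reference. At 96 h the members lean to the lower side (22 of 30 lower), while every one of the 24 DREAM genes is on the higher side.

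Markers of cell types moved with the same comparisons, and their part in the members' values was not tested. Beside the marker counts below, 37.3% of all tested genes were higher and 36.5% lower in spheroids at 96 h. At 48 h these shares were 31.6% and 26.4%, and in monolayers 30.1% of all genes rose and 31.3% fell with time. Across the 6 luminal markers such as Krt8 and Epcam, summed levels were 5959 to 6282 CPM in 96 h spheroids and 4296 to 4628 CPM in 96 h monolayers, and 6260.4 to 6674 CPM in 48 h spheroids and 9516 to 10972 CPM in 48 h monolayers. In spheroids 5 of these markers were higher and none lower at 96 h. At 48 h 5 were lower and 1, Krt19, was 3.37-fold higher. The 6 basal markers summed to 1159 to 1186 CPM in spheroids and 232 to 322 CPM in monolayers at 96 h, and to 1335 to 1423 CPM in spheroids and 1780.4 to 2022 CPM in monolayers at 48 h. Acta2, smooth muscle actin, carried the sum in 48 h monolayers, with 48 ± 3.54 CPM in spheroids and 1207 ± 105 CPM in monolayers at 48 h (SD, n = 3). Of the 6 basal markers, Krt5, Krt14, Trp63 and Oxtr were higher and Acta2 and Myh11 lower in spheroids at each time, with Krt5 12.9-fold higher at 96 h and 2.83-fold higher at 48 h. The 8 fibroblast markers summed to 682 to 737 CPM in 96 h spheroids and 1768 to 2426 CPM in 96 h monolayers, and to 1994 to 2256 CPM in 48 h spheroids and 7789.9 to 8562 CPM in 48 h monolayers. Col1a1 and Col1a2 carried the sum in 48 h monolayers, with means of 4029 and 3063 CPM. In spheroids 6 of the 8 were lower and 1 higher at 96 h. At 48 h 5 were lower and 2, Pdgfra and Dcn, higher. With time in monolayers 6 fell and 2 rose. The 6 endothelial markers summed to 26.6 to 33.1 CPM in spheroids and 67.6 to 71.3 CPM in monolayers at 96 h, and to 52.5 to 61.5 CPM in spheroids and 42.1 to 58.9 CPM in monolayers at 48 h. At 96 h 5 of them were lower in spheroids (Cdh5 11-fold) and 1, Vwf, was higher. At 48 h 3 were lower in spheroids and Vwf was again the 1 higher. Vwf averaged 28.9 ± 1.22 CPM in spheroids and 4.79 ± 1.03 CPM in monolayers at 48 h, a large part of the spheroid sum. The 6 adipocyte markers summed to 46.6 to 50.4 CPM in spheroids and 52.7 to 78.4 CPM in monolayers at 96 h, and to 273 to 305 CPM in spheroids and 30.8 to 36.2 CPM in monolayers at 48 h. Fabp4, a fatty acid carrier, made up nearly all of that sum and was 8.24-fold higher in spheroids at 48 h (adjusted p = 5.22e-14), and Plin1, of lipid droplets, averaged 2 ± 0.319 CPM in 48 h spheroids and was at 0 in all monolayers. Immune markers summed to at most 41.6 CPM in any library, and the immune genes Ptprc, Emr1 and Cd3e and the adipocyte genes Adipoq, Cfd, Lep and Cidec stayed under 1 CPM in every library. Luminal keratins and Epcam, which mark the labelled cell type, were thus abundant in all groups, and fibroblast markers were present in all groups too.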

How the data were processed

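Total RNA libraries made with Illumina TruSeq were aligned to the mouse build mm9 with Bowtie 1.0.1 and quantified with RSEM 1.2.30 after bcl2fastq 2.15.0, per the submitters' processing notes; strand setting and options, not given in the sources used here, could shift values of overlapping genes. The authors deposited expected counts per gene, rounded to whole numbers, which is read from the tool and from 338 counts of 0 beside an FPKM above 0. They also deposited log2 values of FPKM plus 1, turned back into FPKM here for levels per length. Rows are named by mm9 symbols in the deposited annotation, and no mm9 coordinates are printed. The rows of Trp53, Mdm4, Ercc5, Polk and Sesn2 carry a synonym or another transcript name, and Fas and Sesn3 have a second row under a synonym, of which the row with more counts was used.

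Counts were analysed with edgeR 4.0.16 in R 4.3.3: filterByExpr (minimum count 10, minimum total 15), TMM scaling, and 1 quasi-likelihood model over the 12 libraries with the 4 groups as terms (common dispersion 0.00501). The 5 contrasts were 2-sided, with Benjamini-Hochberg adjustment over 13951 genes in each and a threshold of 0.05. "Rose", "fell", "higher" and "lower" of a gene are kept for what passed it. The SE of a log2 change is its size over the square root of F, and is too small for genes with few counts. CPM values use TMM-adjusted library sizes, and FPKM values the authors' own scaling. Reads carried no molecular identifiers, so the floor of 3 counts covers counting error only. Scripts were tested on simulated data. Chi-square per degree of freedom between replicates was 2.49 to 18.4, beyond counting error.

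Members and gene lists were chosen with earlier results of these data known, and lists are described by counts and medians, without a set test. Values in every library are given for Trp53, Mdm2, Cdkn1a and each member called with a log2 change of at least 1 in size between 2 groups. From other lists, 8 genes chosen by name and up to 2 top rises and 2 top falls per list and contrast could be named. Alternatives were scaling by DESeq2 size factors, the upper quartile or the total count, DESeq2 1.42.0, limma 3.58.1 on the log2 FPKM values, no count filter, a stricter one (50 counts in 3 libraries), only the 2 groups compared, a replicate block, rows of a symbol summed, rows with several symbols left out, and each library left out.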

Additional observations from a re-analysis of the deposited data

Results flagged for a closer look

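For 24 of the 30 members the spheroid effect at 96 h differed from that at 48 h by a test of the difference itself (edgeR's quasi-likelihood test of the interaction, adjusted over all genes), where 53.3% of all tested genes did. Among p53 and its regulators the log2 difference was 0.28 for Trp53 (adjusted p = 0.0271), -1.66 for Mdm2, -0.52 for Mdm4 (adjusted p = 0.0295) and -1.27 for Ccng1. Of the arrest genes, Cdkn1a had -0.72, Btg2 -0.99 and Zmat3 -0.42. Of the death genes, Trp53inp1 had -2.57, Phlda3 -1.52, Aen -1.17, Eda2r -1.03, Fas -0.85, Ei24 -0.47, Apaf1 -0.42, Tnfrsf10b -0.41, Bax -0.39, Pmaip1 -0.31 and Perp 0.44. In the repair class Ercc5 had -0.72 and Polk -0.58. In the stress class Ddit4l had -1.55, Gdf15 -1.53, Sesn3 -0.74 and Sesn1 -0.39. Both formats changed with time, so a negative value can stand for a rise in monolayers, a fall in spheroids or both.

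Several of these calls hung on single libraries. Pmaip1 (adjusted p = 0.0418) lost its call without replicate 1 or 2 of the 48 h monolayers, number 1 or 3 of the 48 h spheroids, number 2 of the 96 h monolayers, or number 1 or 2 of the 96 h spheroids (adjusted p from 0.0532 to 0.152), and in all under 11 of 21 alternatives. Sesn1 (adjusted p = 0.0337) lost it without number 2 or 3 of the 48 h monolayers, number 2 or 3 of the 48 h spheroids, or number 1 or 2 of either 96 h group (0.0506 to 0.0887), and in all under 10 of 21. The call of Mdm4 ended without replicate 2 or 3 of the 48 h monolayers, number 1 or 3 of the 48 h spheroids, number 1 of the 96 h monolayers, or number 3 of the 96 h spheroids (0.0507 to 0.0921). Apaf1 (adjusted p = 0.0229) lost it without number 2 of the 48 h monolayers, number 1 or 3 of the 48 h spheroids, number 1 of the 96 h monolayers, or number 2 of the 96 h spheroids (0.0569 to 0.0973). Dcxr had no call (log2 change -0.41, adjusted p = 0.0857) and gained one without replicate 3 of the 48 h monolayers (0.00202) or replicate 3 of the 96 h monolayers (0.0344).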

How the results depend on the processing

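Over all alternatives, 3265 values of the members were recomputed: 3142 kept their side of the threshold, 68 lost their call and 55 gained one. Of values called in either setting, 0 changed sign. Some called in neither did, such as Bax between formats at 48 h (log2 change 0.07, at lowest -0.03). Of the 150 values, 119 kept their call or their lack of one under every alternative. The 2 members with a positive difference of the format effect, 96 h minus 48 h, became 1 under upper-quartile scaling, the stricter filter and with rows of several symbols left out, and 0 under total-count scaling and on the log2 FPKM values. The 2 members that fell in monolayers with time became 1 with rows of several symbols left out, which removes the row of Trp53. Usp7, with no call in monolayers with time (-0.01), was called higher at 0.16 under total-count scaling and 0.17 on the log2 FPKM values. The cause was not tested. Leaving out each library gave 4 to 5 higher and 22 to 23 lower members in spheroids at 96 h, 10 to 12 and 10 to 12 at 48 h, 19 to 21 and 2 to 3 in monolayers with time, 4 to 6 and 9 to 11 in spheroids with time, and 1 to 2 positive and 18 to 23 negative differences of the format effect. The replicate block gave 5 and 22, 12 and 11, 20 and 2, 5 and 11, and 2 and 21 in the same order. It ended 1 call of a member, that of the format effect difference of Pmaip1 (adjusted p = 0.0513). Deviations of same-numbered libraries correlated between -0.11 and 0.0881 over 18 pairs. These weak correlations cannot tell whether same-numbered libraries share an animal, since the spread of single libraries can hide a shared origin. Depth limits Trp73, Cdkn2a and Fas, and the adipocyte and immune markers under 1 CPM.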
